A study of Mus musculus with 6 samples.

Results

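Among the genes listed as changed in hearts with reduced NKX2-5, the genes for sequence-specific DNA-binding transcription factors were described. They are the protein-coding genes of the deposited table that carry the GO term for this activity. Genes that also carry any of 8 terms for heart, blood vessel, actin-binding, sarcomere or contraction functions were left out, as were 7 further genes by name (Isl1, Gata1, Myog, Hoxa4, Hoxa5, Hoxc4 and Hoxd3). Of 1492 listed protein-coding genes, 67 carried the term, 15 of these were left out, and 52 remained as members. Whole hearts of C57BL/6 mouse embryos at E11.5 were dissected from the Nkx2-5 hypomorphic line, in which expression of this cardiac homeobox gene is reduced but not abolished. RNA from 3 control hearts, labelled WT and described as littermates, and from 3 hypomorphic hearts was sequenced. The lines named in the methods are Nkx2-5-gfp and Nkx2-5-IRES-Cre, and the combination of alleles carried by each group is not given in the sources used here, nor is any treatment or sex. The reduced gene itself was not among the listed genes, and the labels could therefore not be checked with its level, which was not analysed here.

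The table gives a mean of raw reads over the hearts of each group and a normalized value on a log2 scale for each group, and the values of the 6 individual hearts were not analysed here. Neither their spread nor their sequencing depth is therefore known, and the groups were compared without a test. Every listed gene had passed the authors' AC test, a test on read counts, with a fold change of at least 1.5, so that "higher" and "lower" below describe group means of genes selected for a difference. A gene that is not listed was not analysed here and may be unchanged, unexpressed or below these limits. Intervals are exact 95% intervals for the ratio of reads summed over 3 hearts and cover counting error only. Of the heart muscle markers, Myl7, an atrial myosin light chain, was listed as higher, with 176094 mean raw reads in controls and 199161 in hypomorphs (normalized log2 difference 0.63). Nppa, the atrial natriuretic peptide, was listed as lower (178388 and 80838 raw reads), as was Pln, which encodes the calcium pump regulator phospholamban (58680 and 22582 raw reads). The other 12 of 15 heart muscle markers were not listed, nor was any of 7 endothelial or 5 epicardial markers. Of 9 skeletal muscle markers 3 were listed, all higher, and of 14 markers of pharyngeal and foregut epithelium 1 was listed, as lower.

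Transcription factors of this kind bind short DNA motifs through a conserved domain, such as the homeodomain, the basic helix-loop-helix (bHLH) or the zinc finger, and raise or lower transcription of nearby genes. Many act in a few tissues only, so that their transcripts in a whole organ also reflect which cell types it holds. In the embryonic heart they set up chamber and conduction system identity, and they direct the differentiation of the blood cells, macrophages and neural crest cells found in and near it.

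Of the 52 members, 27 were higher and 25 were lower in hypomorphic hearts by the difference of normalized group values. Members were thus higher in 51.9% of cases, beside 42.0% of all listed protein-coding genes, and lower in 48.1%, beside 58.0%. At least 2-fold changes were found for 13 of the 52 members as higher, beside 14.6% of all listed genes, and for 6 as lower, beside 17.9%. The median normalized fold was 1.91 among the higher members and 1.74 among the lower members, where all listed genes had 1.79 and 1.76. These shares are descriptions, and no test of the list was made.

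How far a member's place above the 1.5-fold limit rested on the authors' normalization differed between the directions. Over all listed genes, the normalized log2 difference exceeded the log2 ratio of raw means by a median of 0.47, a factor of 1.38 in favour of hypomorphic hearts. All 25 lower members were also lower by at least 1.5-fold in raw reads (48.1% of members, beside 58.1% of all listed genes). Selection at a normalized 1.5-fold, with the factor of 1.38, largely fixed that result in advance. Over all listed genes, 865 were lower by the normalized value and 867 by at least 1.5-fold in raw reads. Among the 27 higher members, 10 were higher by at least 1.5-fold in raw reads, which is 19.2% of the members, beside 11.1% of all listed genes. Among these 10 were Pitx1, Ascl2, Pou4f1, Hesx1, Ikzf1, Csrnp3, Foxf2, Lmx1a and E2f2. The other 17 higher members had raw ratios between 1.11 and 1.45, so that their place above the limit came with the factor between groups. For 9 of the higher members the counting interval of the raw ratio included 1. With the median factor applied, no member's interval did. All members had been selected by a test on these same reads, so this adds no evidence for a difference.

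**Figure D1:**
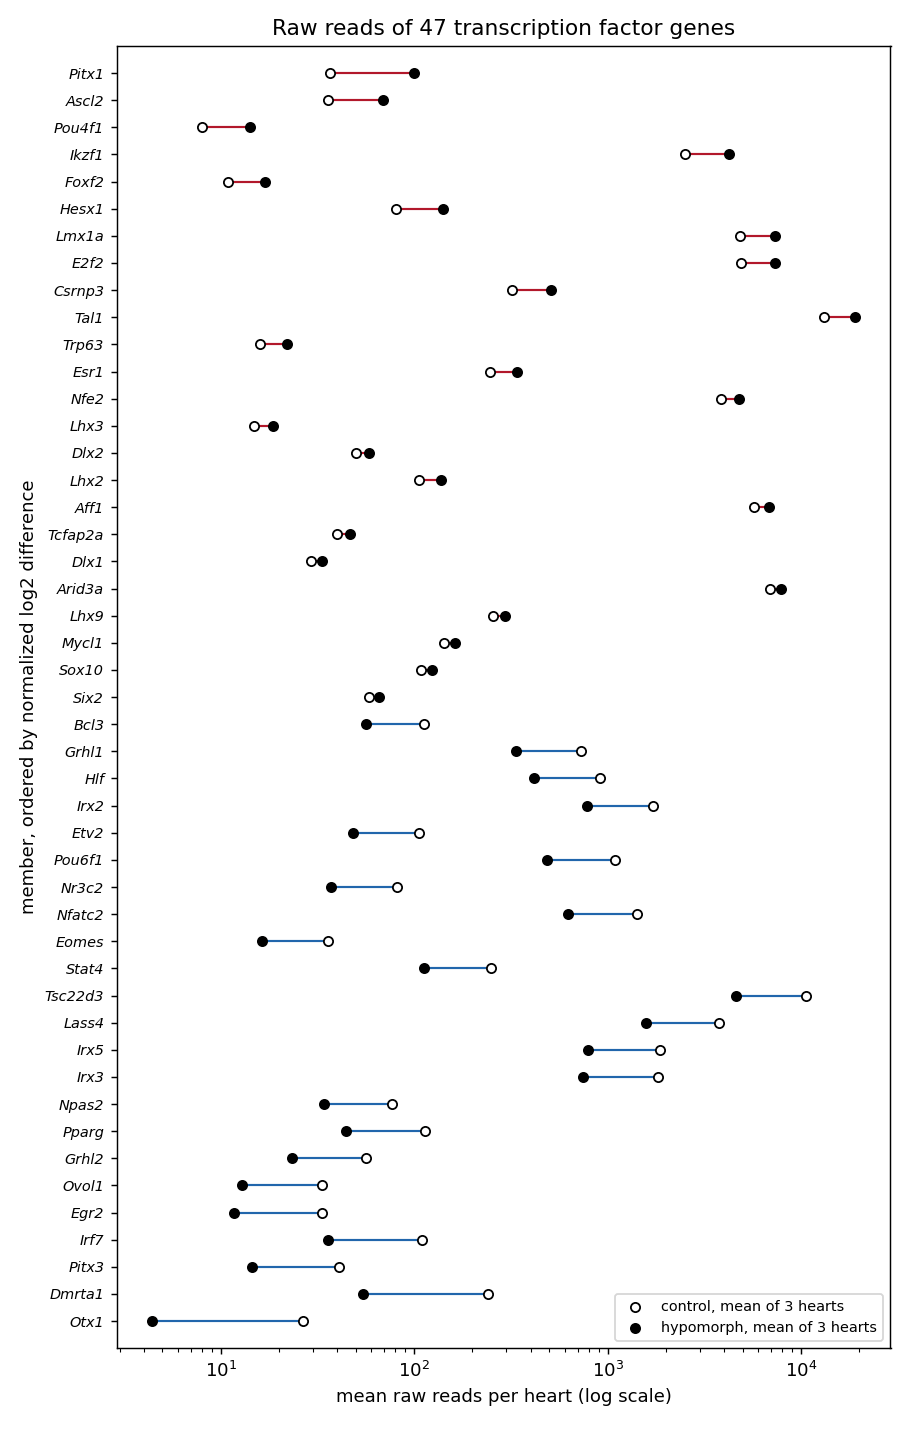
Mean raw reads per heart (log scale) of 47 members in control (open circles) and hypomorphic hearts (filled circles), ordered from the most reduced (bottom) to the most increased (top) by normalized log2 difference. Blue lines join the means of members listed as lower and red lines those of members listed as higher. The gaps are wide for the 23 lower members shown and narrow for most of the 24 higher ones. Selection at 1.5-fold after a factor in favour of hypomorphic hearts largely sets this contrast. No spread between hearts is available.

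**Figure D2:**
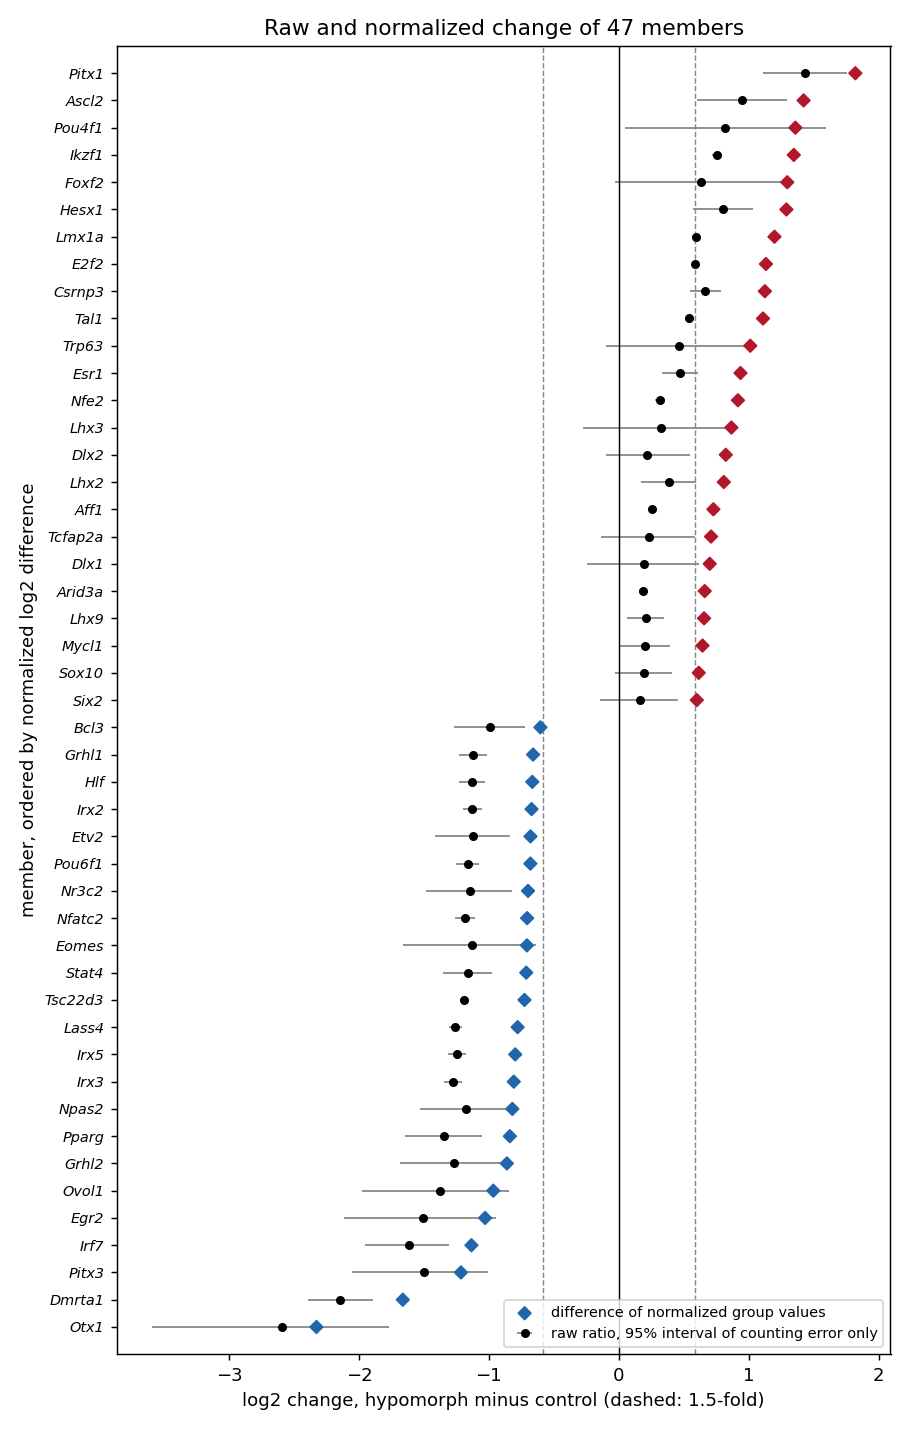
Log2 change of 47 members, hypomorph minus control, from raw group means (black, with 95% intervals of counting error only) and from normalized group values (diamonds, blue where lower and red where higher). The dashed lines mark 1.5-fold, which the raw means of 23 lower and 9 higher members shown reached.

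By DNA-binding domain, 18 members were homeodomain genes, of which 12 were higher and 6 lower. The other 34 members were higher in 15 cases and lower in 19. Over all listed protein-coding genes, 42.0% were higher and 58.0% lower, and no test between these classes was made. The LIM-homeodomain genes Lhx2, Lhx3, Lhx9 and Lmx1a were all higher. The 3 Iroquois genes Irx2, Irx3 and Irx5 were all lower. Paired-like homeodomain genes went both ways, with Pitx1 and Hesx1 higher and Pitx3 and Otx1 lower. Members of the nuclear receptor family were lower for Pparg and Nr3c2 and higher for Esr1. Both grainyhead genes, Grhl1 and Grhl2, were lower, and the forkhead gene Foxf2 was higher. Among bHLH genes, Tal1, Ascl2 and Mycl1 were higher and Npas2 was lower.

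The Iroquois genes encode homeodomain factors of the TALE class. Irx3 acts in the ventricular conduction system and Irx5 in the gradient of repolarization across the ventricular wall. Irx3 had 1811 mean raw reads in controls and 747 in hypomorphs (normalized log2 difference -0.81). The values were 1868 and 788 for Irx5 (-0.80), and 1717 and 786 for Irx2 (-0.67). The 3 genes thus had similar raw reads and similar differences. Over all lower listed genes, the quartiles of the normalized log2 difference were -1.10 and -0.67, so similar differences are common among them. Per kilobase of the longest annotated transcript, control hearts had 772 reads for Irx3, 778 for Irx5 and 654 for Irx2. The counting intervals of the raw ratio were narrow and overlapped for Irx3 (0.393 to 0.434) and Irx5 (0.402 to 0.443), and that of Irx2 (0.436 to 0.481) lay just above that of Irx3. Irx3 and Irx5 lie on chromosome 8 of mm9, from 94322428 to 94325553 on the minus strand and from 94881695 to 94885351 on the plus strand, with transcription starts 556 kb apart. Irx2 lies apart from them on chromosome 13, from 72766245 to 72771644 on the plus strand. Of the 6 genes of the family, the remaining 3 were not listed.

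Other lower members with many reads were Tsc22d3, Lass4, Nfatc2, Pou6f1 and Hlf. Tsc22d3, a leucine zipper gene induced by glucocorticoids, had 10591 mean raw reads in controls and 4635 in hypomorphs (normalized log2 difference -0.73). Tsc22d3 is on the X chromosome, and Xist, the RNA of the inactive X chromosome, was also listed, with 16340 mean raw reads in controls and 53613 in hypomorphs, a raw ratio of 3.28 beside a normalized log2 difference of 8.74. The part of sex in the values of Tsc22d3 and of all other members was not tested, since the sex of the hearts is not given. Lass4 encodes a ceramide synthase with a homeobox-like domain and is not known as a regulator of transcription. Its mean raw reads were 3774 and 1578 (-0.78). Pou6f1, a POU-homeodomain gene, had 1087 and 485 mean raw reads (-0.68), and Hlf, a bZIP factor of the clock output pathway, had 909 and 416 (-0.67). The raw ratios of these 5 genes, Nfatc2 included, lay between 0.418 for Lass4 and 0.457 for Hlf. Such closeness is common among genes selected at the same limit. Over all 865 lower listed genes, the quartiles of the raw ratio were 0.343 and 0.457.

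Regulators of red and other blood cell formation were 5 of the 7 higher members with at least 1000 raw reads. Tal1, a bHLH factor required for blood formation, had the most raw reads of all members, 13127 in controls and 19074 in hypomorphs (normalized log2 difference 1.11). Ikzf1, the zinc finger factor Ikaros of lymphoid and erythroid cells, had 2522 and 4256 raw reads (1.35), and E2f2, which acts in the cell cycle of maturing red cells, had 4891 and 7360 (1.13). Nfe2, a bZIP activator of globin genes, had 3845 and 4779 raw reads (0.92), and the ARID factor Arid3a had 6914 and 7855 (0.66). The raw ratio was above 1 for each of these 5 genes, from 1.14 for Arid3a to 1.69 for Ikzf1. Etv2, an ETS factor of the earliest blood and endothelial progenitors, went the other way, with 105 and 48.3 raw reads (-0.68). In a list of 19 blood cell regulators, chosen with earlier results known, 11 were listed. Of these 11, 10 were higher, beside 42.0% of all listed protein-coding genes. The 5 that are not members were also higher, namely Gfi1b (1.89), Gata1 (1.58), Klf1 (1.46), Zfpm1 (0.61) and Lyl1 (0.58).

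Markers of red blood cells moved with these genes. Of 25 erythroid markers, the globin genes included, 22 were listed. All 22 were higher, beside 42.0% of all listed protein-coding genes. Their summed mean raw reads were 5816630 in controls and 8602880 in hypomorphs, a ratio of 1.48 before any scaling. None of the listed markers was at 0 reads in either group. In whole-heart RNA, more cells of a type and more RNA per cell cannot be told apart, and the part of the blood cell content in the values of these members was not tested.

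The amount by which the normalized change exceeded the raw change also differed between members. Over all 1492 listed genes this excess had quartiles of 0.44 and 0.50 on the log2 scale. In the 22 erythroid markers it ran from 0.54 to 0.69, with a median of 0.62, whereas in the 8 listed macrophage markers the median was 0.45. Of the 15 members that had 1000 or more raw reads in either group, 10 had an excess between 0.45 and 0.48. The remaining 5 had an excess within the range of the erythroid markers, namely E2f2 (0.54), Tal1 (0.57), Ikzf1 (0.59), Nfe2 (0.60) and Lmx1a (0.61). Among the 397 listed genes of that depth that are neither members nor erythroid markers, 65 (16.4%) reached the lowest value of an erythroid marker. All 5 of these members were higher, and of all 273 higher listed genes of that depth, 90 (33.0%) reached it. Arid3a (0.48) and Aff1 (0.47), which are higher and have many reads, did not. What gives rise to the excess was not tested, since it needs the values of single hearts.

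**Figure D3:**
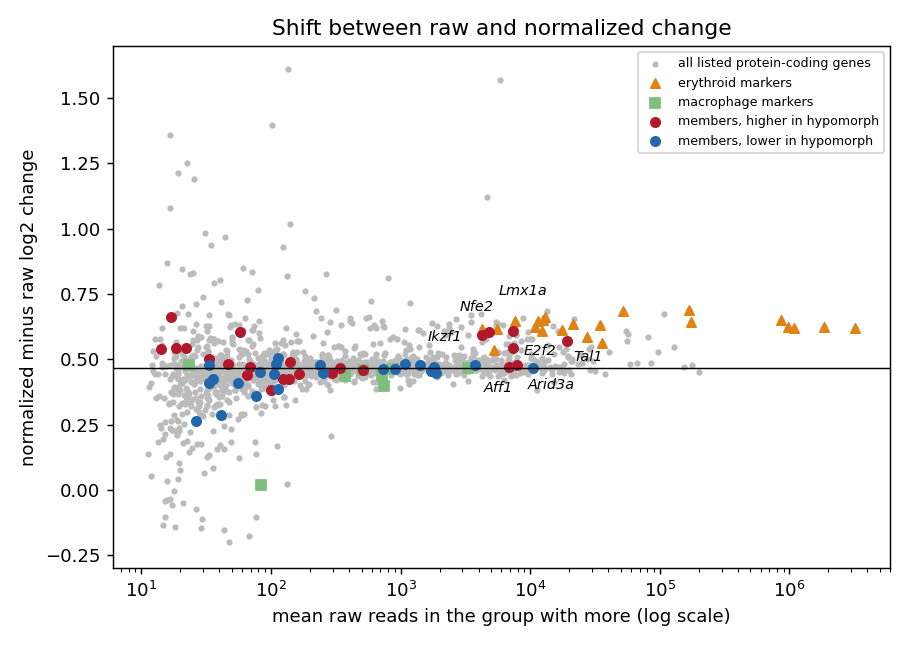
Normalized minus raw log2 change (vertical axis) against mean raw reads in the group with more (horizontal axis, log scale) for the listed protein-coding genes (grey), erythroid markers (orange triangles), macrophage markers (green squares) and 47 members (red where higher, blue where lower). The black line is the median of 0.47. Nfe2, Lmx1a, Ikzf1, Tal1 and E2f2 lie within the range of the erythroid markers, and Arid3a and Aff1 lie on the line. Of all higher listed genes with at least 1000 reads, 33.0% reach the lowest value of that range.

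Lmx1a, a LIM-homeodomain gene best known from dopaminergic neurons and the roof plate of the neural tube, had 4861 mean raw reads in controls and 7318 in hypomorphs (normalized log2 difference 1.198). Its raw ratio was 1.51 (interval 1.47 to 1.54). Per kilobase of transcript it had 1453 reads in control and 2187 in hypomorphic hearts, whereas the other LIM-homeodomain members had few. In control hearts these had 51.9 reads per kilobase (Lhx9), 46.1 (Lhx2) and 6.69 (Lhx3). None of the 9 neuron markers was listed as higher, and 1 of them, Elavl3, was listed as lower. Which cells gave the Lmx1a reads was not tested. Aff1, a gene of the AF4 family of transcription elongation factors that can be fused to Kmt2a in leukaemia, had 5729 and 6839 mean raw reads (0.73).

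In a list of 15 regulators of myeloid and other immune cells, chosen with earlier results known, 7 were listed and all 7 were members. All 7 were lower, beside 58.0% of all listed protein-coding genes. Ikzf1, which also acts in lymphoid cells, was counted with the blood cell regulators and was higher. Irf7, the interferon regulatory factor that drives type I interferon genes, had 109.8 mean raw reads in controls and 35.8 in hypomorphs (normalized log2 difference -1.13, raw ratio 0.326, interval 0.258 to 0.404). Nfatc2, a calcineurin-dependent factor of T cells and other tissues, had 1423 and 627 (-0.71). The raw ratio of Irf7 was thus lower than that of Nfatc2 (0.440, interval 0.417 to 0.465). Pparg, a nuclear receptor of fat cells and macrophages, had 113.2 and 44.7 (-0.84). Stat4, which transmits interleukin-12 signals, had 250 and 112.1 (-0.71), and Bcl3, a nuclear protein of the I-kappa-B family that binds NF-kappa-B rather than DNA, had 112.6 and 56.7 (-0.60). Of 22 macrophage markers, 8 were listed and all 8 were lower, with summed mean raw reads of 6625 in controls and 1417 in hypomorphs. Lyz2, the macrophage lysozyme, had 3289 and 305 raw reads, and its paralog Lyz1, which can share reads with it, had 878 and 52.97. Without these lysozyme genes, the sums over the other 6 markers were 2458 and 1059, a ratio of 0.431 in place of 0.214, and their raw ratios ran from 0.286 (Timd4) to 0.532 (Aif1). None of the 8 was at 0 reads in either group. The part of macrophage content in the values of these members was not tested.

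**Figure D4:**
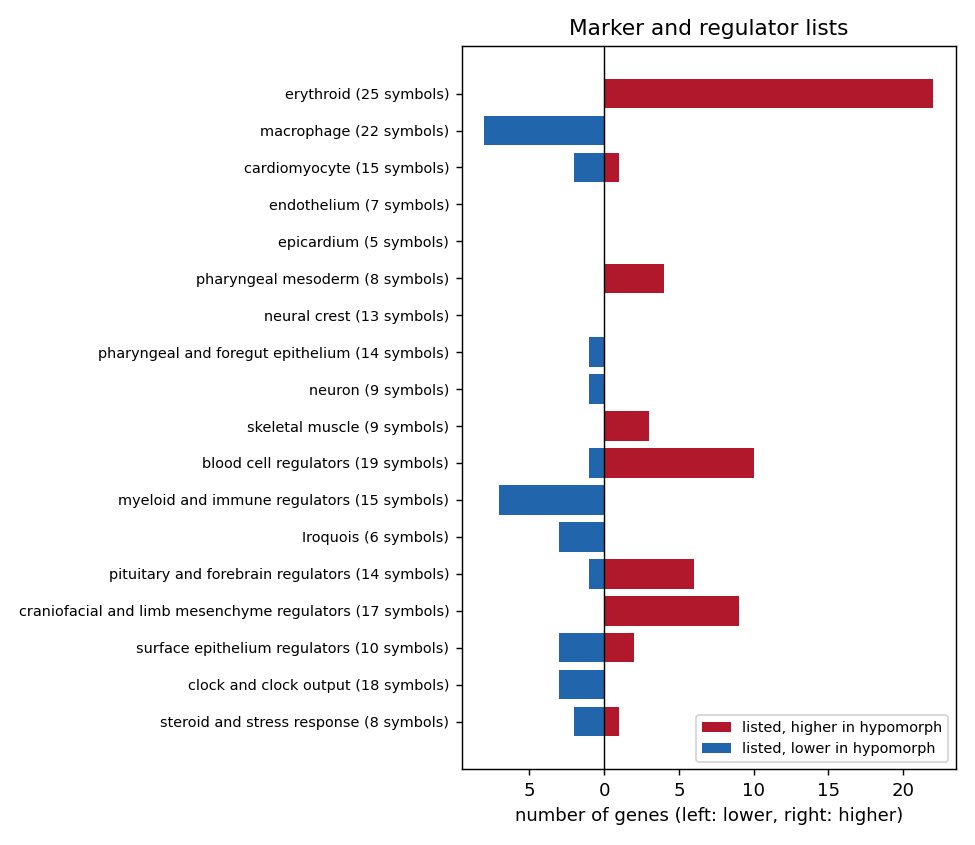
Number of genes of each marker list and regulator list that were listed as higher (red, to the right) or lower (blue, to the left) in hypomorphic hearts, with the number of symbols in each list in parentheses. The erythroid list has 22 higher genes, and the macrophage list has 8 lower ones. A gene that is not listed is not counted. Of all listed protein-coding genes, 42.0% were higher and 58.0% were lower.

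Several members that are known from the pituitary and forebrain were higher at low read counts. Pitx1, a paired-like factor of the oral ectoderm, pituitary and hindlimb, had the largest normalized difference of the higher members, with 36.8 and 99.7 mean raw reads (normalized log2 difference 1.82, raw ratio 2.71, interval 2.16 to 3.38). Hesx1, a repressor of Rathke's pouch, had 80.7 and 140.3 (1.29, raw ratio 1.74, interval 1.48 to 2.05). For both genes the lower bound of the counting interval stayed above 1 without scaling. Lhx2 had 105.6 and 137.8 raw reads (0.81), and Lhx3, a pituitary and motor neuron factor, had 14.9 and 18.6 (0.87), with a raw ratio whose interval included 1 (0.826 to 1.89). Otx1, a head patterning factor, was the most reduced member, with 26.6 raw reads in controls and 4.42 in hypomorphs (-2.33, raw ratio 0.166, interval 0.0829 to 0.294). Its paralog Otx2, which is not a member because it does not carry the term, was listed as higher, with 11.1 and 21.1 raw reads (1.35). In the list of 14 pituitary and forebrain regulators, chosen with earlier results known, 7 were listed, 6 as higher and 1 as lower. Of all listed protein-coding genes, 42.0% were higher. Pitx1 is also counted in the list of craniofacial and limb mesenchyme regulators below.

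In a list of 17 regulators of craniofacial and limb mesenchyme, 9 were listed, all of them members. All 9 were higher, beside 42.0% of all listed protein-coding genes, and the list was chosen with earlier results known. Dlx1 had 29.2 and 33.4 mean raw reads (normalized log2 difference 0.70) and Dlx2 had 50 and 58.2 (0.82). These homeodomain genes of the pharyngeal arches and forebrain lie next to each other on chromosome 2 of mm9, from 71366170 to 71372038 on the plus strand and from 71381466 to 71384811 on the minus strand, with transcription starts 18.6 kb apart. Dlx1 shares 335 bp of exon with the antisense gene Dlx1as, whose reads cannot be told apart where counting does not use strand. Dlx3, left out for a vessel term, was listed as lower (21.0 and 5.33 raw reads, -2.03). The T-box gene Tbx15, which is not a member, was also lower (40 and 12 raw reads, -1.38). Neither gene is in the list of 17. Foxf2 had 10.9 and 17.0 (1.30), Lhx9 had 256 and 296 (0.66), Six2 had 58.5 and 65.4 (0.60), and Tcfap2a, which encodes AP-2 alpha, had 39.9 and 46.8 (0.71). Of the members Dlx1, Dlx2, Foxf2, Lhx9, Six2 and Tcfap2a, all but Lhx9 had a counting interval of the raw ratio that included 1. Sox10, a factor of migrating neural crest and glia, had 108.0 and 123.2 (0.62), and its interval also included 1 (0.981 to 1.33). None of 13 other neural crest markers was listed. Of 8 markers of pharyngeal mesoderm, the tissue that adds cells to the arterial pole, 4 were listed and all 4 were higher, among them Fgf8 (10.7 and 63.4 raw reads) and Fgf10 (205 and 355). The part of tissue from outside the heart in the values of these members was not tested.

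Of 10 regulators of surface epithelia, 5 were listed, with 3 lower and 2 higher. Grhl1 had 727 and 334 mean raw reads (normalized log2 difference -0.66), Grhl2 had 56.0 and 23.3 (-0.86), and the zinc finger gene Ovol1 had 33.3 and 12.8 (-0.97). Trp63, the p53 relative of basal epidermal cells, had 15.9 and 22.0 (1.01) with an interval of the raw ratio from 0.934 to 2.04, and Tcfap2a was also higher. The clock genes and clock output genes were represented by Npas2 (77.0 and 34.0 raw reads, -0.82) and Hlf among 3 listed genes, all lower. The other 15 of the 18 genes in that list were not listed. Of the steroid hormone receptors, Nr3c2, the mineralocorticoid receptor, had 81.9 and 36.9 raw reads (-0.70), and Esr1, oestrogen receptor alpha, had 245 and 340 (0.94).

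Among the remaining members, Dmrta1, a DM-domain gene, was the second most reduced after Otx1, with 241 and 54.6 mean raw reads (normalized log2 difference -1.66, raw ratio 0.227, interval 0.191 to 0.269). Pitx3, a lens and midbrain factor and a paralog of Pitx1, had 40.9 and 14.5 (-1.21), Egr2, a hindbrain and Schwann cell factor, had 33.3 and 11.7 (-1.03), and the T-box gene Eomes had 36.0 and 16.4 (-0.71). Ascl2, a bHLH factor imprinted in the placenta, had 35.8 and 69.2 (1.42, raw ratio 1.93, interval 1.52 to 2.45). Csrnp3 had 321 and 510 (1.12), the sensory neuron factor Pou4f1 had 8 and 14.1 (1.36), and Mycl1, a gene of the MYC family, had 142.1 and 163.4 (0.64). In the case of Pou4f1, the member with the fewest reads, the interval of the raw ratio ran from 1.04 to 3.02. In all, 12 members had fewer than 50 raw reads in the group with more. Nearest to the limit of 1.5-fold were Six2 (normalized log2 difference 0.60) among the higher members and Bcl3 (-0.60) among the lower ones.

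The other GO terms attached to the members differed in number between the directions. Negative regulation of transcription from RNA polymerase II promoters was attached to 9 of 27 higher members, Ikzf1 and Ascl2 among them, and to 3 of 25 lower members, Ovol1, Pparg and Tsc22d3. Positive regulation was attached to 16 higher and 8 lower members. Multicellular organismal development was attached to 12 higher and 6 lower members, and chromatin binding to 8 and 2. Steroid hormone receptor activity was attached to 1 higher and 3 lower members, signal transduction to 1 and 4, and zinc ion binding to 5 and 4. Among all listed genes, these 7 terms were attached to 2.21% (negative regulation), 4.09% (positive regulation), 4.69% (development), 1.01% (chromatin binding), 0.268% (steroid receptor activity), 14.4% (signal transduction) and 4.56% (zinc ion binding). Members were defined by a related term, so larger shares of the transcription terms than in all listed genes follow from the membership rule. These terms were chosen after their counts were seen and were not tested.

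Promoter sequences from RefSeq (GRCm38.p6, 250 bases before to 50 bases after each transcription start) were searched for the core motif of NKX2-5, TNAAGTG, and for that of MEIS factors, TGACAG, on both strands. The motifs can overlap, since TNAAGTG ends with the letters TG with which TGACAG begins. Of the 52 members, 38 had at least 1 promoter in the collection, 58 promoters in all. Among the members not matched were Arid3a, Grhl2, Irx5, Nfe2, Otx1, Ovol1, Pitx1, Sox10 and Trp63. TNAAGTG was found in 4 of the 58 promoters (6.90%), beside 3790 of all 32851 promoters of the same length. The members were Lmx1a and Esr1, which were higher, and Pitx3 and Tsc22d3, which were lower. TGACAG was found in 4 promoters (6.90%), beside 19.2% of all. The members were Csrnp3, Lhx9, Pou4f1 and Six2, all higher, where 51.9% of all 52 members were higher. Their raw ratios were 1.59, 1.15, 1.76 and 1.12, and the counting interval of Six2 included 1 (0.904 to 1.37). A match describes these letters only. The matches to TNAAGTG are shown with 10 bases on each side, in the direction of transcription and with the motif in capitals, because they are the members' promoter sequences that carry the core motif of the factor reduced in these hearts:
Lmx1a, chr1:167689536-167689562, plus strand: cgcgttgactTCAAGTGaaatcagagc
Esr1, chr10:4611940-4611966, plus strand: ccaatcccagTCAAGTGgtggtgctag
Pitx3, chr19:46148392-46148418, minus strand: tgggttgccaTAAAGTGaatgggcgcc
Tsc22d3, chrX:140542803-140542829, minus strand: actcgagcgcTGAAGTGagccagggag
Tsc22d3, chrX:140542768-140542794, minus strand: ggctggactcTGAAGTGgacctcagag

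The motif began 12 bases before the transcription start in Lmx1a, 39 bases before it in Esr1 and 83 bases before it in Pitx3, and in Tsc22d3 the pair of matches began 151 and 116 bases before it. The matches to TGACAG, which in the reverse direction reads CTGTCA, were as follows, shown in the same way as the sequences that carry the MEIS core motif:
Csrnp3, chr2:65931822-65931847, plus strand: ggtgcgatgtTGACAGcctggtgaag
Lhx9, chr1:138842554-138842579, minus strand: agaggaggtaTGACAGgtctttgttg
Pou4f1, chr14:104468092-104468117, minus strand: cagctgctgtCTGTCAgcgcggcggg
Six2, chr17:85688474-85688499, minus strand: ccggggcgatCTGTCAgcggagctgg
Six2, chr17:85688401-85688426, minus strand: taccggtgacTGACAGcgtctccatg

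By position in mm9, all 52 members were placed in the GENCODE annotation of that build by their Ensembl identifiers. Exons of 13 members overlapped another annotated gene, in most cases an antisense transcript. Only the pairs Dlx1 and Dlx2 and Irx3 and Irx5 had transcription starts within 1000 kb of each other.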

How the data were processed

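Hearts were dissected at E11.5, and total RNA was made into libraries with the TruSeq kit and sequenced on a Genome Analyzer IIx. The authors aligned reads to mm9 with TopHat (the submitters' processing notes also name CASAVA 1.4) and analysed RefSeq genes in Avadis NGS, keeping genes past the AC test with a fold change of at least 1.5. Raw values in the deposited table are estimated counts that the authors averaged within each group. Normalized values in it are 1 log2 value per group and gene, which the authors centred near 0, and how they were derived is not given in the sources used here. The authors' fold-change columns, signed, absolute and log2, with a direction, were not used.

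The planned tests on counts per heart could not be run, since each group has 1 value per gene, and p-values were not computed. The normalized log2 difference was taken between the 2 normalized columns and the raw ratio between the raw means. Counting intervals treated 3 times the mean, rounded, as summed reads, with an exact binomial (Clopper-Pearson) interval. The steps were tested on simulated data. Alternatives were other scalings, read minimums of 50 and 100, a fold of 2 and other memberships. The members and lists were chosen with earlier results of these data known. By the rule for named genes, members were named, with values for the largest differences, the most reads, families with several listed genes, the role lists and raw ratios of at least 1.5. Values of the few members outside these, such as Npas2 and Eomes, were added after they were seen. Counts cover all 52 members, of which 47 are named and plotted and the others are not reported here singly. The planned comparison of homeodomain protein sequences was not run. Promoter positions are in GRCm38.p6 and all gene positions in mm9. Depth per heart is unknown. Calculations used pandas 2.3.3, numpy 2.4.6 and scipy 1.17.1 in Python 3.11.15, and plots were drawn with matplotlib 3.10.9.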

Additional observations from a re-analysis of the deposited data

How the results depend on the processing

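Which of the 52 members passed the 1.5-fold limit depended on the scaling between groups. Without scaling, and with raw reads scaled to the total of listed genes without globins, 10 members were higher by at least 1.5-fold in place of 27. All 25 lower members stayed. Of the 35 members still past the limit, 28.6% were higher under both, beside 51.9% of all 52. Without scaling, 166 of all listed protein-coding genes were higher and 867 were lower by at least 1.5-fold. The other higher members fell under the limit but kept a raw ratio above 1. With the median factor, 27 were higher and 24 lower, Bcl3 falling under the limit. No member changed sign under these 3 scalings. At least 2-fold changes left 13 higher and 6 lower members (68.4% higher). Over all listed protein-coding genes they left 218 higher and 267 lower. At least 100 raw reads left 15 higher and 17 lower members, and 22 in place of 35 with a raw ratio past 1.5-fold. Without the blood and immune regulators, an alternative chosen after seeing the data, 22 were higher and 17 lower.

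No paired analysis was possible because the table holds 1 value per group, and leaving out a heart was not run for the same reason. The precision beyond counting error is unknown.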
